A study of Mus musculus with 186 samples.

Results

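The contractile genes of smooth muscle and the oxytocin receptor were followed through single basal and luminal cells of the adult mouse mammary gland. The genes were taken by name, from a list rather than by a threshold on their values, and comprised Acta2, Actg2, Myh11, Mylk, Myl9, Tagln, Cnn1, Tpm1, Tpm2 and Oxtr. They are 10 of the 27179 gene identifiers in the count files. All 10 were found by Entrez identifier, and all 10 were among the 14773 genes that reached 1 CPM (a count scaled to a total of 1000000 per cell) in at least 3 cells. The series holds 96 basal and 90 luminal cells from the glands of 8 adult FVB/NJ mice, with no treatment or genetic change labelled in either group. Both populations came from the lineage-negative fraction, which the study's sort depleted of cells with CD31, CD45 or TER119 (markers of endothelial and blood cells). Basal cells were then taken as CD29hi CD24+ and luminal cells as CD29lo CD24+. Each cell was captured on its own site of the Fluidigm C1, a microfluidic chip that makes full-length cDNA in place, and was sequenced as its own library, so no cell barcode was shared. The labels place the basal cells on PCR plates A and B. Luminal cells came from plates B and C, so that both populations met on plate B only. The labels tie no cell to a mouse. Each population therefore counted as 1 sample, cells were not treated as replicates, and no test was run between populations.

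Basal cells of the mammary gland are myoepithelial: they form the outer layer of ducts and alveoli and contract to eject milk. Contraction starts when oxytocin, released from the pituitary during suckling, binds its receptor Oxtr, which raises calcium in the cell. Calcium bound to calmodulin activates myosin light chain kinase (Mylk), the kinase phosphorylates the regulatory light chain Myl9, and smooth muscle myosin (Myh11) then pulls on filaments of smooth muscle actin (Acta2, Actg2). Tropomyosins (Tpm1, Tpm2), calponin (Cnn1) and transgelin (Tagln) bind along these filaments. Luminal cells line the duct and make milk.

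Of the 186 cells, 72 basal and 76 luminal cells passed the thresholds of the study on counts and genes detected. Total counts after removal of mitochondrial and ribosomal protein genes had a median of 1189247 in basal and 1459614 in luminal cells, and the smallest passing library held 69933. Markers were read against the labels. At least 4 of 10 luminal markers stood at 10 CPM or more in 76 of 76 luminal cells, and at least 4 of 10 basal markers in 65 of 72 basal cells, or all 50 of plate A and 15 of the 22 of plate B. Markers of the other population were held by the same count in 13 of 72 basal cells, 12 of them on plate A, and in 7 of 76 luminal cells. Basal cell 90, on plate B, had 7 luminal markers and no basal marker at that level, and luminal cell 63, on plate C, had 7 of each. By the same count 5 basal cells on plate B and 4 luminal cells on plate C held endothelial markers, and 1 and 3 of these cells also held pericyte markers. Pericytes and vascular smooth muscle use most of the same contractile genes. The defining pericyte marker Rgs5 was at 0 CPM in basal cell 72, the basal cell that held pericyte markers. It stood at 407 CPM in basal cell 63 and at 56.7 CPM in luminal cell 25. Some results are given with and without the cells that held endothelial or pericyte markers, such as the median ratio of the 10 genes. The remaining results include these cells, and their part there was not tested.

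Because the contractile genes were high in the same cells, the reference sequence around their RefSeq starts was searched for motifs of muscle and basal cell transcription. RefSeq promoters (GRCm38.p6, from 250 bases before to 50 after the start of the gene) were matched for 7 of the 10 genes: Acta2, Mylk, Myl9, Cnn1, Tpm1, Tpm2 and Oxtr. Actg2, Myh11 and Tagln had no entry. Both strands were searched for the CArG box, which serum response factor binds in many muscle genes, for the TATAAA box, and for the TEAD motif CATTCC, which reads as GGAATG on the other strand. A complete CArG box occurred in the Myl9 promoter only, 161 to 152 bases before the start, against 1.63% of all 32851 promoters. In a search added after the data were seen, a CArG box with at most 1 letter changed occurred at -84 and -34 in Acta2, at -161 and -99 in Myl9 and at -221 and -80 in Tpm1, and in 21.1% of all promoters. The one at -84 in Acta2 is shown. The TEAD motif occurred at -146 in Acta2, -158 in Mylk and -56 in Tpm1, and in 14.7% of all promoters. The starts are those of the promoter table, and in Acta2, Mylk, Myl9 and Tpm1 they lie inside the span given for the gene in the following paragraphs. The stretches shown for Acta2, Mylk and Tpm1 are therefore within that span. The letters TATAAA, in 13.6% of all promoters, were in none of the 7 windows, and none of the motifs was found in those of Cnn1, Tpm2 and Oxtr. These are matches of letters and are not evidence of binding. The stretches that hold a match are printed in the direction of the gene, with the motif in capitals and up to 30 bases on either side.
Myl9, CArG box, chr2:156775273-156775342, plus strand: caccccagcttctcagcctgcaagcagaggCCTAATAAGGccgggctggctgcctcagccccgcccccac
Acta2, CArG box with 1 letter changed, chr19:34255418-34255487, minus strand: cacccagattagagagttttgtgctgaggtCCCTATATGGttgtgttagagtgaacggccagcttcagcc
Acta2, TEAD motif, chr19:34255484-34255549, minus strand: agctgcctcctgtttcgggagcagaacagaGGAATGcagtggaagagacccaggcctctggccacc
Mylk, TEAD motif, chr16:34784762-34784827, plus strand: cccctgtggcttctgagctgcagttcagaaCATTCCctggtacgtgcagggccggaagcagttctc
Tpm1, TEAD motif, chr9:67049234-67049299, minus strand: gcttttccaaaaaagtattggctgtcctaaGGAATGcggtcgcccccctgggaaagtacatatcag

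The first question was how strongly each population carried the contractile program. Together the 10 genes made up 1.64% of the summed counts of basal cells and 0.0394% of those of luminal cells. Per cell their summed level ran from 76.3 through a median of 14020.2 to 64691 CPM in basal cells and from 0.562 through a median of 117 to 10874 CPM in luminal cells. The ranges overlapped. The lowest basal cells were cells 82 (76.3 CPM), 90 (788 CPM) and 72 (953 CPM), all on plate B and all with no basal marker at 10 CPM, and the highest luminal cells were cells 63 (10874 CPM) and 25 (4399 CPM). All 10 genes were higher in basal cells by a log2 ratio of 1 or more on the counts summed per population (1 CPM added to each), with all plates pooled and again within plate B. Of all 14773 genes 18.3% passed that ratio with all plates pooled and 17.2% within plate B. Since the 10 were chosen with this direction largely known, the comparison is a description only. The median log2 ratio of the 10 was 5.80 (all genes, -0.18), and within plate B it was 7.39 (all genes, -0.48). Without luminal cells 63 and 25 the median of the 10 was 7.62, and without the cells that held endothelial or pericyte markers it was 6.50. All 10 stayed at 1 or more in both cases.

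**Figure D1:**
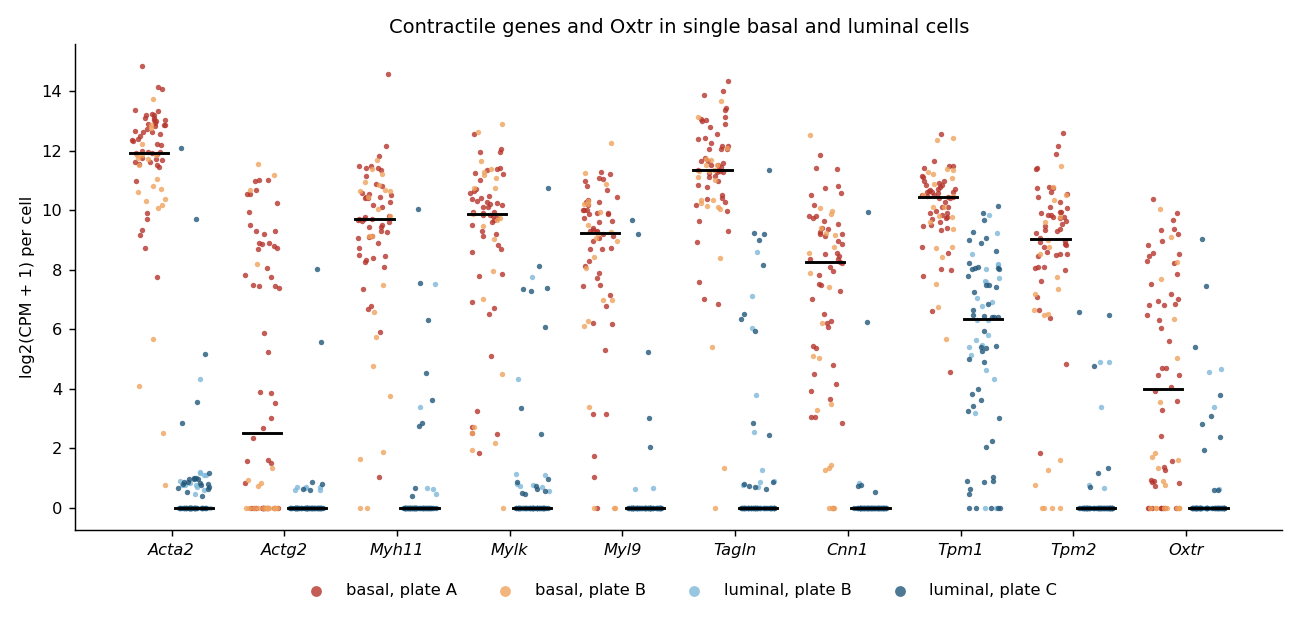
Level of each gene in every passing cell, as log2 of CPM with 1 added (vertical axis), with basal cells at the left and luminal cells at the right of each gene name, coloured by plate (72 basal and 76 luminal cells). Black bars mark medians. Basal medians were lowest for Actg2 (4.79 CPM) and Oxtr (15.1 CPM), and among luminal cells Tpm1 alone had a median above 0.

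Oxtr (Entrez 18430, chr6:112473683-112491035, GRCm38.p6), the G protein-coupled receptor for oxytocin, was the gene of the 10 with the lowest level per length in basal cells, and many of these cells had none of it at equal depth. Basal cells ran from 0 through a median of 15.1 to 1323 CPM, the highest being basal cell 55, and luminal cells from 0 through 0 to 522 CPM. The populations overlapped widely, with 25 of 72 basal and 2 of 76 luminal cells at 100 CPM or more. The summed level was 155 CPM in basal cells, with a 95% exact Poisson interval of 152 to 158. Over the luminal cells it was 19.2 CPM (18.4 to 20.1), and the log2 ratio was 2.95, or 4.78 on plate B. The 7 basal cells with the most Oxtr reads held 52.0% of the basal reads. On plate B basal cells 94 and 63 together held 61.7% of the basal reads, and cell 63 also held endothelial markers. The luminal level came mainly from a single cell. Luminal cell 36, on plate C, gave 1686 of the 2194 luminal reads, and the ratio without it was 4.81. That cell had 9 of 10 luminal markers at 10 CPM or more and Acta2 at 0.310 CPM. Luminal cell 69, next in Oxtr reads with 173 CPM, had 8 luminal markers and no Acta2 read. The intervals cover counting error only, because PCR reads without molecular identifiers are not independent molecules.

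Since cells differed in depth, detection was compared after each was thinned to 50000 reads. Oxtr then had a read in 36 of 72 basal cells (50%, exact Clopper-Pearson interval 38.0 to 62.0) and in 8 of 76 luminal cells (10.5%, 4.66 to 19.7). At full depth the shares were 76.4% and 18.4%. By plate, the thinned share was 60% of 50 basal cells on plate A (45.2 to 73.6) and 27.3% of 22 on plate B (10.7 to 50.2). The intervals overlapped, which does not show that the shares were alike, and no test was run. The pooled level of Oxtr was 1.19 higher on plate A than on plate B on the log2 scale, and this was the highest value among the 10 genes, for which it ran from -0.38 to 1.19. Basal cells 94 and 63 held 61.7% of the Oxtr reads of the plate B basal cells. Genes detected per basal cell also differed, with medians of 4873 on plate A and 3085 on plate B. Over basal cells the r of log2 Oxtr CPM with the number of genes detected was 0.29 on plate A, 0.28 within plate B and 0.38 for both plates, where the other 9 genes ran from 0.03 to 0.31. The part of this in the plate difference was not tested.

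Among the smooth muscle actins, Acta2 (Entrez 11475, chr19:34240336-34255585) was the leading contractile gene of basal cells and Actg2 (Entrez 11468, chr6:83512909-83536251) was patchy. Acta2 ran from 0.693 through a median of 3913 to 29501 CPM in basal cells and from 0 through 0 to 4372 CPM in luminal cells. It stood at 100 CPM or more in 68 of 72 basal and 2 of 76 luminal cells. The summed level of Acta2 was 5535 CPM in basal cells against 60.1 CPM among luminal cells, or 6.50 as a log2 ratio. It was 11.16 on plate B, where no luminal cell exceeded 18.9 CPM. Of the 6860 luminal Acta2 reads, luminal cell 63 gave 78.1%, and with luminal cell 25 the share was 98.6%. Without both cells the ratio was 11.52. Actg2, the enteric form, ran from 0 through a median of 4.79 to 3023 CPM in basal cells and from 0 through 0 to 257 CPM in luminal cells. It reached 100 CPM in 29 basal cells and 1 luminal cell. Its log2 ratio was 6.63 (8.48 on plate B) and became 7.71 without luminal cell 67, which gave 251 of its 358 luminal reads.

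At equal depth Acta2 was in 70 of 72 basal cells, so that nearly every cell with Actg2 had to hold it too. The 33 basal cells with an Actg2 read all had Acta2, 37 had Acta2 without Actg2, and 2 had neither. In the 3 luminal cells with Actg2 no Acta2 read was found. Actg2 was detected in 58% of basal cells on plate A (43.2 to 71.8) and in 18.2% on plate B (5.19 to 40.3), while Acta2 was detected in 100% and 90.9%. Yet the summed Actg2 level hardly differed between the plates (log2 plate A over plate B -0.04), since basal cells 92 and 81 together held 81.6% of the plate B reads. Per transcript length, Actg2 made up 9.07% of the 2 smooth muscle actins in the pooled basal cells, with a median of 0.122% per cell and a highest value of 56.8%. Acta2 made up 15.3% of Acta2 plus the cytoplasmic beta actin Actb in basal cells and 0.363% in luminal cells. Actins are near copies of each other in their coding sequence, and how reads that fit several genes were counted is not given in the sources used here.

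**Figure D2:**
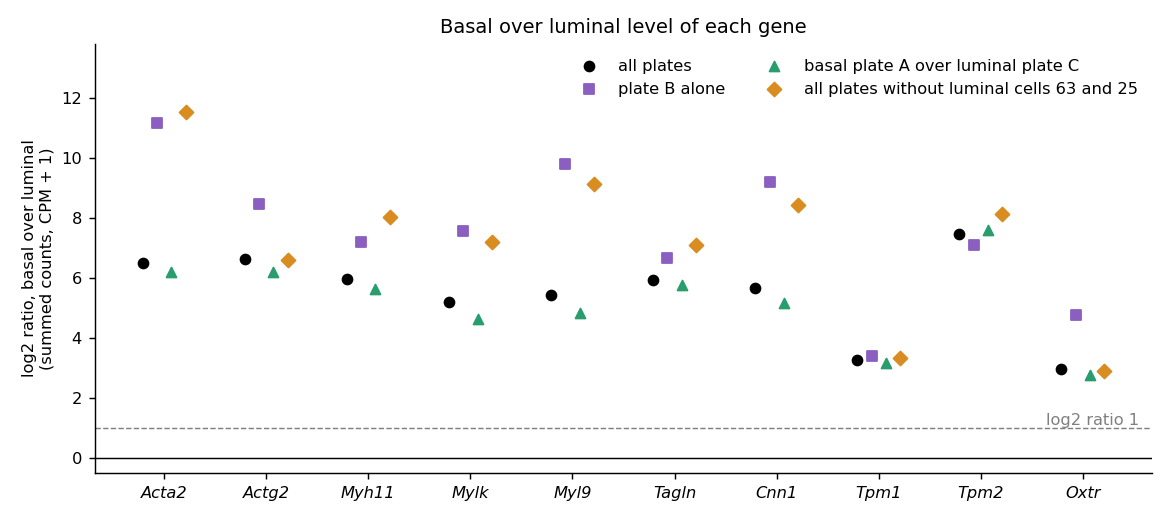
Log2 ratio of the summed basal over the summed luminal level of each gene (vertical axis, CPM with 1 added), over all plates, on plate B alone, for basal cells of plate A over luminal cells of plate C, and without luminal cells 63 and 25. All points lie above the dashed line at a log2 ratio of 1, and Acta2 moves most, from 6.50 over all plates to 11.52 without the named cells.

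The motor genes followed the same direction. Myh11 (Entrez 17880, chr16:14194527-14292188), the smooth muscle myosin heavy chain, ran from 0 through a median of 831 to 24489 CPM in basal cells and from 0 through 0 to 1047 CPM in luminal cells. The highest value was that of basal cell 54, a shallow library of 94899 reads whose mitochondrial share was 64.8%, and the next was 4589 CPM. Myh11 reached 100 CPM in 62 basal and 3 luminal cells. Its log2 ratio was 5.95 (7.21 on plate B) and 7.32 without luminal cell 63, which held 65.3% of the luminal reads. Mylk (Entrez 107589, chr16:34745199-35002436) ran from 0 through 935 to 7606 CPM in basal and from 0 through 0 to 1740 CPM in luminal cells. Here the highest luminal cell was cell 25, with 69.5% of the luminal reads, and the ratio of 5.20 (7.57 on plate B) became 6.81 without it. Myl9 (Entrez 98932, chr2:156775408-156781657) ran from 0 through 605 to 4946 CPM and from 0 through 0 to 808 CPM. Luminal cells 25 and 63 together held 97.2% of its luminal reads. Its ratio was 5.43 over all plates and 9.12 without both cells, and on plate B, where 2 luminal reads were counted, it was 9.79.

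Smooth muscle myosin shared the basal cell with its non-muscle relative. Per transcript length Myh11 made up 34.8% of Myh11 plus Myh9 in the pooled basal cells and 2.87% in luminal cells. The share per basal cell ran from 0 through a median of 34.3 to 98.5%, and exceeded 50% in 18 cells. Myh9, the heavy chain of non-muscle myosin IIA, was itself higher in basal cells, at 2347 against 649 CPM.

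Tagln and Cnn1 bind actin filaments. Tagln (Entrez 21345, chr9:45929628-45936058) was the second most abundant of the 10, with 0 to 20873 CPM and a median of 2604 CPM in basal cells and 0 to 2608 CPM with a median of 0 in luminal cells. It reached 100 CPM in 69 basal and 7 luminal cells. The log2 ratio was 5.93, 6.68 on plate B, and 6.73 without luminal cell 63, which gave 3197 of 7294 luminal reads. After Tpm1, Tagln was the gene of the 10 most often seen in luminal cells, in 12 of 76 at 50000 reads (15.8%, 8.43 to 26.0). Cnn1 (Entrez 12797, chr9:22099221-22109221) ran from 0 through 303 to 5920 CPM in basal cells and from 0 through 0 to 981 CPM in luminal cells. It was found in 58 of 72 basal cells at that depth (80.6%, 69.5 to 88.9) and in 2 of 76 luminal cells (2.63%, 0.320 to 9.18). Luminal cell 63 held 93.0% of its luminal reads, so the ratio of 5.67 was 8.44 without that cell.

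The tropomyosins, which lie along the actin filament, differed from each other. Tpm1 (Entrez 22003, chr9:67022590-67049672) had the smallest ratio of the filament genes, at 3.25 (3.39 on plate B), and leaving out a single cell gave values of 3.16 to 3.34. Its level ran from 22.6 through 1387 to 6101 CPM in basal cells. In luminal cells it ran from 0 through 81.1 to 1123 CPM, and 32 of 76 luminal cells were at 100 CPM or more. At 50000 reads it was detected in 72 of 72 basal and 54 of 76 luminal cells (71.1%, 59.5 to 80.9). Tpm2 (Entrez 22004, chr4:43513726-43523583) had the highest ratio with plates pooled, 7.48. Within plate B, where it was 7.10, the ratios of Acta2, Actg2, Myh11, Mylk, Myl9 and Cnn1 were higher, and without luminal cells 63 and 25, where it was 8.12, those of Acta2, Myl9 and Cnn1. It ran from 0 through 523 to 6270 CPM in basal cells, and no luminal cell exceeded 95.7 CPM. Per transcript length Tpm2 made up 45.6% of both tropomyosins in the pooled basal cells and 3.42% in luminal cells. In basal cells it ran from 0 through a median of 44.3 to 96.2% of the pair. The counts are per gene and do not separate muscle from non-muscle transcripts of Tpm1. Tropomyosin genes are close in sequence and may share reads.

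Levels of different genes were compared per length only, as RPKM (CPM per kilobase of exon length in the count files), which lowers the value of long genes with several isoforms such as Mylk and Tpm1. In basal cells the order was Acta2 (3109.5 RPKM), Tagln (2494), Myl9 (788), Tpm1 (465), Tpm2 (391), Cnn1 (315), Actg2 (310.1), Mylk (179.8), Myh11 (170.0) and Oxtr (34.0). Acta2, Tagln and Myl9 came first and Oxtr last on each plate. The order of the others depended on the plate. Tpm2 stood above Tpm1, Cnn1 and Actg2 on plate A (461 RPKM) and below them on plate B (250.3 RPKM), and the neighbours Cnn1 and Actg2, and Mylk and Myh11, changed places. In luminal cells Tpm1 led with plates pooled (48.5 RPKM) and on plate B (52.1 RPKM), where Tagln followed with 17.1 RPKM and all other members were below 1.5 RPKM. Plate C, which holds luminal cells 63 and 25, had Tagln at 51.4, Acta2 at 49.8 and Tpm1 at 46.8 RPKM.

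**Figure D3:**
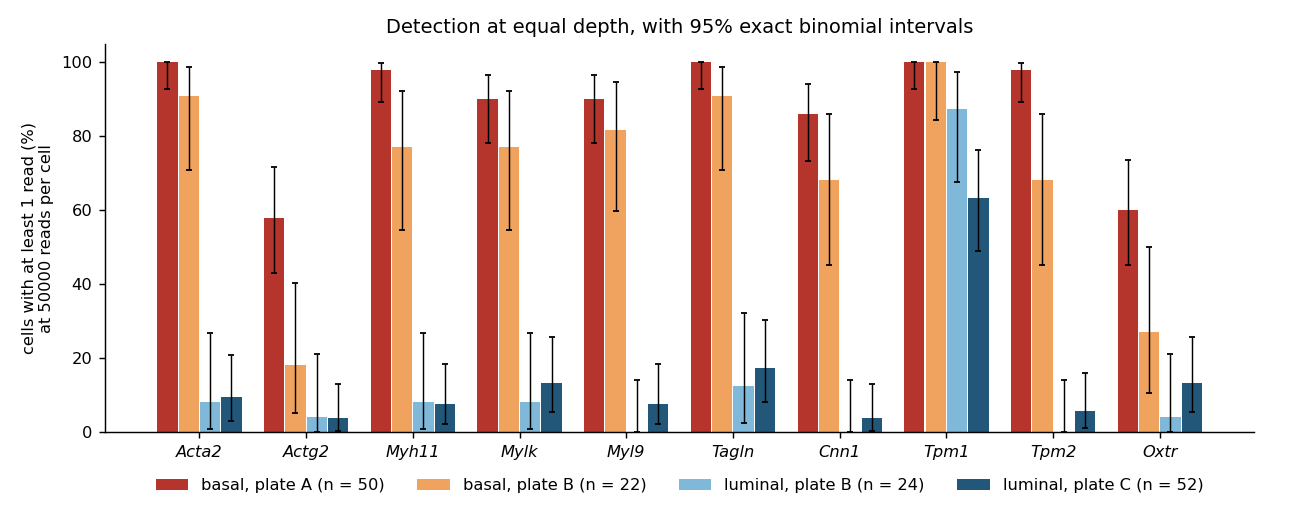
Percent of cells with at least 1 read of each gene after thinning every cell to 50000 reads (vertical axis), by population and plate, with 95% exact binomial intervals as error bars. Tpm1 stands out among luminal cells (plate B 87.5%, plate C 63.5%), and Actg2 and Oxtr are lower than the other genes in basal cells on both plates.

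The next question was how many of the genes a cell carried. At 50000 reads a basal cell had a median of 9 of the 10 genes and a luminal cell a median of 1. At least 8 genes were found in 56 of 72 basal cells (77.8%) and in 1 of 76 luminal cells (1.32%). All 10 were found in 14 basal cells, every one on plate A, where the median was 9. On plate B it was 7.5. Among luminal cells 13 had none of the genes and 40 had a single one, which was Tpm1 in 32 of the 40 and Oxtr in 4.

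The exceptions were few, and each is given by its values. Luminal cell 63, with 8 genes, had Acta2 at 4372, Tagln at 2608, Myh11 at 1047 and Cnn1 at 981 CPM beside Krt14 at 419 CPM and Krt18 at 1524 CPM. It had no Oxtr read. It held no endothelial and 1 pericyte marker at 10 CPM or more. Luminal cells 25 and 71, with 7 and 6 genes, each held 9 endothelial and 7 pericyte markers and no Krt14 read, and luminal cell 27, with 4 genes, held 8 and 4. In basal cell 90 only Tpm1 was above 1 CPM, at 787 CPM. Basal cells 13 and 20, which also held 7 luminal markers but 6 and 9 basal markers, had 9 and 10 of the genes. Their summed level was 4343 and 12152 CPM. Basal cell 84 departed in another way, with Mylk at 6351 and Tpm2 at 2881 CPM but Acta2 at 16.3 and Myl9 at 9.41 CPM.

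**Figure D4:**
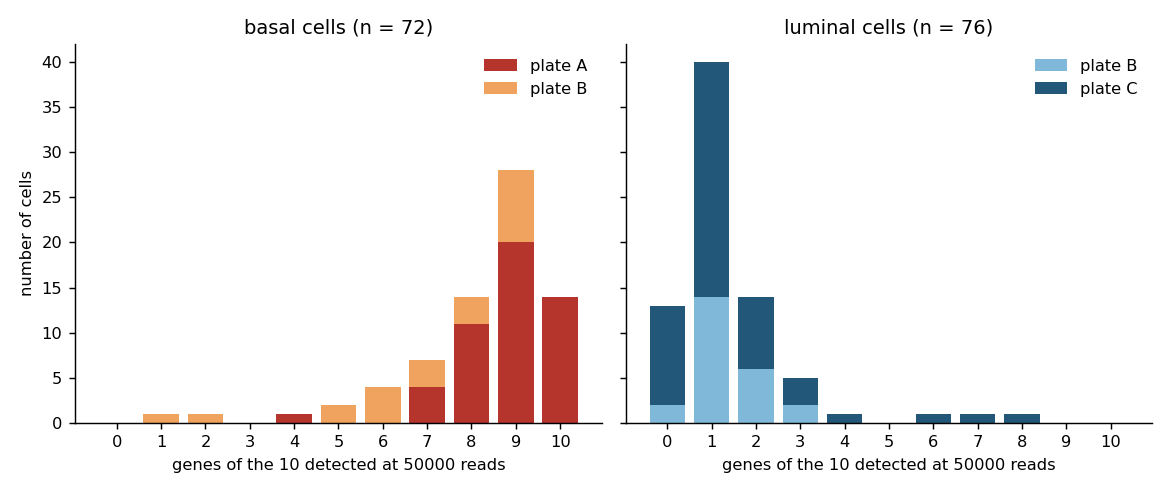
Number of the 10 genes detected per cell at 50000 reads (horizontal axis) against the number of cells (vertical axis), for 72 basal and 76 luminal cells, stacked by plate. Basal cells peak at 9 genes and luminal cells at 1, and luminal cells with 4 or more genes (4 cells) are all on plate C.

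Within basal cells the genes were next compared for shared variation, as the Pearson correlation of log2 CPM (1 CPM added) over cells. Values were taken within each plate, since the plates differed in level. These are descriptions over 50 plate A and 22 plate B cells. The median r of the 45 pairs was 0.22 on plate A, where that of all 21323715 pairs among 6531 genes was 0.08. For plate B the medians were 0.36 and 0.03. Over both plates it was 0.34. In 14 of the 45 pairs (31.1%) r was at least 0.3 on both plates, against 1.34% of all pairs of genes. Leaving out basal cell 90 left 12 pairs and a median of 0.30 on plate B. Leaving out the cells that held endothelial markers left 14 pairs.

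By Pearson r Acta2 and Tagln varied together most closely, with 0.72 on plate A and 0.83 on plate B. Spearman's rho for them was 0.69 and 0.47, and on plate B the highest rho was that of Acta2 with Myl9 (0.82). By r, Acta2 was also among the pairs past 0.3 on both plates with Myl9 (0.50 and 0.82), Cnn1 (0.57 and 0.62), Actg2 (0.39 and 0.35), Tpm1 (0.31 and 0.54) and Tpm2 (0.35 and 0.41). The others were Tagln with Myh11, Myl9, Cnn1 and Tpm2, Tpm2 with Myh11, Mylk and Myl9, and Mylk with its substrate Myl9 (0.40 and 0.49). Zero values entered some of these. Over the cells with a read of both genes, the r of Mylk and Myl9 was 0.29 on plate A (49 cells) and 0.19 on plate B (19 cells). That of Acta2 and Tpm2 was 0.35 on plate A (50 cells) and -0.17 on plate B (18 cells). For Acta2 and Tagln it was 0.72 on both plates. The r of Myh11 with Acta2 was 0.15 on plate A and 0.49 within plate B, but Spearman's rho was 0.41 and 0.38. Plate A holds basal cell 54, with its outlying Myh11 value. The tropomyosins had r of 0.40 on plate A and 0.04 on plate B. Actg2 and Tpm1 each passed 0.3 on both plates with Acta2 alone.

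Oxtr stood outside this pattern in its values. None of its 9 pairs reached 0.3 on both plates. Their median r was 0.06 on plate A, where that of the 36 pairs of filament genes was 0.29. Within plate B the medians were 0.20 and 0.41. The highest Oxtr value was with Cnn1 on plate A (0.24) and with Tpm2 on plate B (0.41), and the lowest was with Tpm1 on plate B (-0.26). Without basal cell 90 the Oxtr median on plate B was 0.13. The 36 basal cells with an Oxtr read at 50000 reads all had Acta2, Tagln and Tpm1 as well, but those genes were in 70, 70 and 72 of the 72 basal cells, and 34 cells had Acta2 without Oxtr. Of the 8 luminal cells with Oxtr 4 had Tpm1, 3 had Tagln and 1 had Mylk. None had the other 6 genes, each of which was in 2 to 7 of the 76 luminal cells. Oxtr was low and had many zero values, which limits what a correlation can show. Over the cells in which both genes had a read, the r of Acta2 and Oxtr was 0.07 on plate A (42 cells) and 0.38 within plate B (13 cells).

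**Figure D5:**
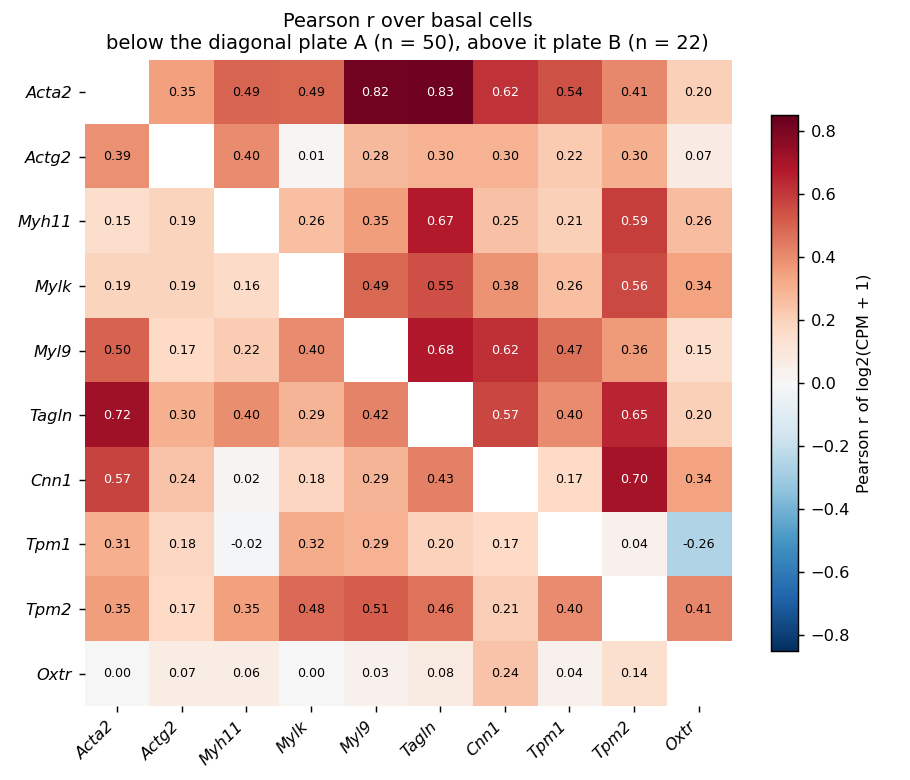
Pearson r of log2 CPM (1 CPM added) for each pair of the 10 genes over basal cells, with plate A (50 cells) below the diagonal and plate B (22 cells) above it, on a colour scale from blue (negative) to red (positive). Acta2 and Tagln have the highest value on both plates, 0.72 and 0.83, and the row of Oxtr on plate A is pale, with no value above 0.24.

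Depth and lineage markers varied with the genes to differing degrees. The mean of the 10 standardised values had r with log2 total counts of 0.29 (plate A) and 0.22 (plate B). With Krt14, a basal keratin, it was 0.28 and 0.69, and with the mean of the 10 luminal markers -0.00 and -0.44. With the mean of the 10 basal markers it was 0.20 and 0.75. Basal markers were held by 15 of the 22 basal cells of plate B, and the part of this in the pair correlations was not tested. The residuals on total counts and genes detected gave a median r of 0.33 for the 45 pairs over both plates. The spread over basal cells was smallest for Tpm1 (coefficient of variation 0.786) and Acta2 (0.905). It was 1.80 for Actg2 and 1.74 for Oxtr, and for Myh11 it was 2.05 with basal cell 54 and 0.905 without it.

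By the same measure on plate A, the genes most like the mean of the 10 were sought among 3929 others found in at least 50% of these cells. They were Dstn (r = 0.64), which encodes an actin-depolymerising protein, Gm6252 (0.56), Actb (0.56), Myh9 (0.55) and Gm5781 (0.54). On plate B, which did not choose them, Dstn had 0.76, Actb 0.51, Gm6252 0.23, Myh9 -0.12 and Gm5781 -0.33. The level of Dstn was 2922 CPM in the basal and 1179 CPM in the luminal population. For Oxtr the leading genes were Klhl21 (0.55), Prdx2 (0.52), Lsm7 (0.50), Mtdh (0.50) and Bhlhe40 (0.48), and on plate B their r lay between -0.21 and 0.20.

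Other genes of the same machinery were read from lists, beside which stand all 14773 genes, with 2697 higher in basal cells by a log2 ratio of 1 or more, 4190 lower by as much and a median of -0.18. Among 14 measured filament relatives, which are related actin, myosin, tropomyosin, calponin and transgelin genes and the actin-binding gene Cald1, 6 were higher in basal cells by a log2 ratio of 1 or more, none was lower by as much, and the median was 0.64. Cald1 (caldesmon, an actin-binding inhibitor of the myosin ATPase) led with 784 against 87.4 CPM (log2 3.15, 3.99 on plate B). Cnn2, a calponin outside smooth muscle, had 305 and 64.6 CPM (2.22), and Myl6, an essential light chain, 230.0 and 52.9 CPM (2.10). The skeletal actin Acta1 was at 0.951 CPM in basal cells and the cardiac actin Actc1 did not pass the filter.

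Of 15 genes of the smooth muscle cytoskeleton 10 were higher by that ratio in the basal population and 1 in the luminal one, with a median of 2.32. Palld, which encodes a protein that cross-links actin, had 193 against 4.40 CPM (log2 5.17). Lmod1, a leiomodin that nucleates actin filaments in smooth muscle, had 123 against 2.50 CPM (5.15). Flna, the cross-linker filamin A, had 994 against 112 CPM (3.14). The gene higher in luminal cells was Des, the intermediate filament desmin of muscle, named here after its values were seen. It was at 0.0594 CPM in basal cells and 2.05 CPM in luminal cells, and was at 69.1 CPM in luminal cell 25 and 92.3 CPM in luminal cell 71. Without the cells that held endothelial or pericyte markers the counts were 11 and 0.

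Genes downstream of the receptor went in both directions. Of 21 genes of oxytocin signalling, from the G proteins to calcium release and myosin phosphatase, 6 were higher in the basal population and 5 in the luminal one, with a median of -0.10. Of all 14773 genes 2697 and 4190 were. The median of the 21 became 0.12 with TMM scaling. Without the cells that held endothelial or pericyte markers the counts were 5 and 4. The 5 higher in luminal cells, named after their values were seen, were Plcb1 (-2.12), Plcb3 (-1.40), Plcb4 (-1.88), Itpr3 (-1.19) and Orai1 (-1.91). Ppp1r12a, the targeting subunit of myosin phosphatase, had 435 and 150.1 CPM (log2 1.53). Itpr1, an inositol trisphosphate receptor that releases calcium, had 109 and 48.6 CPM (1.15), but its ratio was 0.66 without the cells that held endothelial or pericyte markers. The G protein gene Gnaq, named after its values were seen, had 180.3 and 134 CPM and lay within a log2 ratio of 1.

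Of 9 genes of relaxation signalling 5 favoured the basal and 2 the luminal population. Prkacb, a catalytic subunit of protein kinase A, had 257 and 33.3 CPM (log2 2.91, 5.71 on plate B). The other 4, named after their values were seen, were Prkg1 (1.45), Mrvi1 (2.98), Kcnma1 (6.49) and Kcnmb1 (3.09). The 2 higher in luminal cells, named in the same way, were Pde5a (-2.35) and Gucy1b1 (-1.68). At 50000 reads Gucy1b1 had a read in only 2 basal cells and 1 luminal cell, and its ratio on plate B was 0.40. Without the cells that held endothelial or pericyte markers the counts of the list were 6 and 1. Kcnma1 and Kcnmb1, the pore and an auxiliary subunit of a calcium-activated potassium channel, were at -0.00 and 0.10 on plate B. Among 12 other receptors that drive smooth muscle contraction 7 passed the filter. Agtr1a, an angiotensin receptor, was higher in luminal cells, at 109 against 0.559 CPM (log2 -6.14, -6.94 on plate B). By summed counts Ednrb (1.61) and F2r (1.56) were higher in basal cells and Adra1a (-4.18) in luminal cells, all 3 named after their values were seen. At 50000 reads Ednrb had a read in only 6 basal and 4 luminal cells, so its ratio rests on few cells. F2r had a read in 21 basal and 8 luminal cells, and Adra1a in 3 basal and 8 luminal cells. The vasopressin receptors Avpr1a and Avpr1b, which also bind oxytocin, did not pass the filter.

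Of 12 genes of transcription control 2 favoured the basal and 4 the luminal population. Without the cells that held endothelial or pericyte markers the counts were 2 and 3. Trp63, the p63 factor of basal epithelia, had 132 and 5.37 CPM (log2 4.38, 7.25 on plate B), and Tead1 348 and 77.3 CPM (2.16, 1.58 on plate B). The genes named next were chosen after their values were seen. Srf, which encodes serum response factor, had a level of 25.7 CPM in the basal and 70.6 CPM in the luminal population (-1.42). Myocd, the gene of its muscle coactivator myocardin, had 0.178 CPM in the basal and 3.44 CPM in the luminal population (-1.91). At equal depth Myocd had a read in 1 of 72 basal cells and in 4 luminal cells. Mrtfb, which encodes a related coactivator, had 217 and 290 CPM, and 441 and 353 CPM on plate B, where the direction was the opposite.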

How the data were processed

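Single-cell RNA-seq was examined in 96 basal and 90 luminal cells. The authors mapped read pairs to mm10 with Subread, assigned them to genes with featureCounts and a built-in RefSeq annotation, and deposited raw counts per gene and cell. Strand and multi-mapping settings are not given in the sources used here. Of 27179 identifiers 25275 matched a RefSeq symbol (GRCm38.p6, the assembly of mm10), and the other 1904 held 1.94% of counts and were left out. The 15 mitochondrial and 124 ribosomal protein genes were removed. Cells were kept by the study's thresholds (basal, 50000 reads and 1000 genes; luminal, 100000 reads and 1500 genes), and genes at 1 CPM in at least 3 cells. A read here is a counted read pair. A series-wide table was not used here.

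Counts were summed per population and compared as log2 CPM with 1 CPM added. Cells were thinned to 50000 reads without replacement for detection. Pearson r was taken over log2 CPM of basal cells, and set against genes detected in at least 25% of them. With 1 sample per population no test was run. Total counts per cell ran from 3105 to 3784407. The 95% Poisson intervals cover counting error only. The 95% Clopper-Pearson intervals take the cells as independent draws and cover no spread between mice. No 2 cells of a population agreed within sampling noise (smallest chi-square per gene 47.4 in basal and 58.6 in luminal cells). No doublet caller was run, since the study inspected capture sites under the microscope.

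The members and gene lists were chosen with earlier results of these data known. The lists were filament relatives, smooth muscle cytoskeleton, oxytocin signalling, relaxation signalling, contractile receptors, transcription control, and markers of basal, luminal, pericyte, endothelial, fibroblast and skeletal muscle cells, a cell holding a marker list when 4 of its 10 genes were at 10 CPM or more. Named besides the members were up to 3 genes per list and direction with the highest log2 ratio (at least 1 with plates pooled and within plate B, and at least 100 CPM in the higher population), and the 5 genes most like the members' mean and the 5 most like Oxtr on plate A, detected in at least 50% of its basal cells. A gene that the rule named is not reported here. Alternatives covered cell and gene filters, gene removal, scaling (edgeR 4.0.16 TMM, DESeq2 1.42.0 size factors), added CPM, pooling, plates, depth, detection threshold, correlation measure and single cells. The ratio, correlation and thinning steps were tested on simulated data. Python 3.11.15, numpy 2.4.6, pandas 2.3.3, scipy 1.17.1 and R 4.3.3 were used.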

Additional observations from a re-analysis of the deposited data

Results flagged for a closer look

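Cells below the thresholds were used in no comparison of the report, and the contractile genes were present in them too. The 24 basal cells below the thresholds held 265874 reads in all, and the summed level of the 10 genes was 6364 CPM there, where a count of 3 reads would give 11.3 CPM. Per cell it ran from 400.4 through a median of 3891 to 135610 CPM, and each of the 24 cells had between 4 and 10 of the genes. In the 14 luminal cells below the thresholds, with 412543 reads, the summed level was 599 CPM, and 3 reads would give 7.27 CPM. A luminal cell of this set had a median of 2 of the genes, and 1 of the 14 had none. Values of such shallow cells rest on few reads, and their cause was not tested.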

How the results depend on the processing

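The 10 genes stayed at a log2 ratio of 1 or more under all 14 alternatives, though omitting the gene filter could not change these ratios. Their median of 5.80 moved beyond its counting interval to 6.02 with TMM and 6.05 with median-of-ratios factors, which shifted the median of all genes by 0.15 and 0.17, to 5.86 and 4.95 with 0.1 and 10 CPM added, to 5.53 for the mean over cells, to 7.39 on plate B, to 5.40 for basal plate A over luminal plate C, to 7.62 without luminal cells 63 and 25, to 7.07 without each gene's most influential cell, and to 6.50 without cells that held endothelial or pericyte markers. With TMM 3109 genes were higher in basal and 3698 in luminal cells, against 2697 and 4190.

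The share of basal cells with Oxtr was 76.4% at full depth and 27.3% on plate B, and that of luminal cells 2.63% at 5 or more reads and 4.17% on plate B. The median number of genes was 7.5 per basal cell on plate B and 2 per luminal cell at full depth. The median r of the 45 pairs was 0.22 on plate A alone and lay between 0.25 and 0.39 under the other alternatives, of which the 36 pairs without Oxtr (0.39) and cells with a read of both genes (0.25) were chosen after seeing the data. No sign changed. No paired analysis was possible because the results come from no test, and a number shared by a basal and a luminal cell only names a cell. Low genes were limited by depth: at 50000 reads, 0 of 24 luminal cells on plate B had Myl9, Cnn1 or Tpm2, so that at that depth a share of 12.5% (3 of 24 cells; exact interval up to 14.2%) cannot be told from 0, and at full depth Tpm2 had a read in 5 of the 24.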

Other observations

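Marker lists of other cells were read beside the contractile genes. Fibroblast markers (4 of 10 at 10 CPM or more) were held by 1 of 72 basal and 6 of 76 luminal cells, and the summed level of the 10 was 904 CPM over the basal and 1818 CPM over the luminal population. Skeletal muscle markers were held by 0 of 72 basal and 0 of 76 luminal cells, and their summed level was 22.0 and 18.0 CPM. The summed endothelial markers were at 0.535 CPM in basal cells of plate A, where none of the 50 cells held them, and at 559 CPM in basal cells of plate B, where 5 of 22 did. The contractile genes in these 5 cells were not at 0: basal cell 63 had 9 of the 10 genes and a summed level of 14075 CPM, basal cell 95 had 9 and 6408 CPM, basal cell 80 had 7 and 2814 CPM, basal cell 71 had 6 and 3887 CPM, and basal cell 72 had 5 and 953 CPM. In the luminal cells that held endothelial markers the summed level was 4399 CPM in cell 25, 935 CPM in cell 71, 427 CPM in cell 27 and 154 CPM in cell 55. In basal cells of plate A the median over cells was 15543 CPM.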
